A study of Bos taurus with 12 samples.

Results

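The 10 genes described here are regulators of mitochondrial biogenesis and of mitochondrial fusion, taken by name from a table of 18436 genes measured in bovine muscle cells. They are the coactivators PPARGC1A and PPARGC1B, the nuclear receptor ESRRA, the transcription factors NRF1 and GABPA, the mitochondrial DNA factors TFAM and TFB2M, and the fusion GTPases MFN1, MFN2 and OPA1. All 10 were present in the table, and 9 had a mean level high enough to be tested. The m6A peaks annotated to the same names numbered 12 of 19739 in the list for proliferating cells and 17 of 20790 in the list for differentiated cells.

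Primary myoblasts came from the longissimus dorsi muscle of newborn Qinchuan cattle, and the methods describe a single calf as the source. GM cells grew in medium with fetal bovine serum and were taken before differentiation, at day 0. DM cells were taken after 4 days in medium with a small amount of horse serum, in which myoblasts fuse into myotubes. The labels name no genetic change and no drug, and all media held penicillin and streptomycin. Each group had 3 cultures, each giving an input library of poly(A) RNA and a library from immunoprecipitation (IP) with an antibody against N6-methyladenosine (m6A), so the series holds 12 libraries. Expression is known for the 6 input libraries, and m6A only from 1 peak list per group. If the cultures share a calf, the p-values below measure the spread between cultures and not between animals.

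Mitochondrial biogenesis is directed from the nucleus, because nearly all mitochondrial proteins are encoded there. Coactivators of the PGC-1 family carry no DNA-binding domain of their own and act on factors such as ESRRA, NRF1 and GABPA, which in turn bind the promoters of respiratory chain genes and of TFAM and TFB2M. TFAM packages mitochondrial DNA and, with TFB2M and the polymerase POLRMT, starts its transcription, while the mitofusins and OPA1 join the outer and inner membranes of neighbouring mitochondria. The comparison of GM with DM asks how these genes stand before and after muscle cells differentiate, in transcript level and in m6A.

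The labels were checked against muscle markers. MYOG, a late myogenic factor, had 193, 190 and 207 FPKM (fragments counted per transcript length and library size) in the 3 GM libraries and 250, 226 and 253 in the DM libraries. MYH3, the embryonic myosin heavy chain, had 275, 274 and 270 FPKM in GM and 666, 670 and 642 in DM. Creatine kinase CKM had 9.23, 9.52 and 11.8 FPKM in GM and 43.2, 39.7 and 44.7 in DM. These 3 genes were higher in every DM library, but MYOG and MYH3 were already high in GM. The precursor genes lay the other way: PAX7 had 1.10, 0.979 and 1.17 FPKM in GM and 0.0417, 0.102 and 0.0439 in DM. MYF5 had 12.6, 11.97 and 10.7 FPKM in GM and 2.40, 2.41 and 1.95 in DM, and MYOD1 had 57.8, 61.2 and 65.7 in GM and 24.2, 24.0 and 26.1 in DM. Of the marker lists, 15 of 19 tested myotube genes rose and 1 fell, 6 of 7 myoblast genes fell, and all 10 cell cycle genes fell (limma, adjusted p under 0.05). Summed FPKM of the cell cycle list was 139 to 150 in GM and 33.5 to 38.1 in DM. Of 10 fibroblast markers 5 rose and 1 fell. Their summed level, most of it collagen, was 16096 to 16248 FPKM in GM and 16997 to 18106 in DM. Which cells of the cultures made this collagen was not tested. Markers of fat, vessel and blood cells were low, with summed levels of at most 3.54, 0.874 and 2.01 FPKM, and none of the 3 that could be tested was called. What part these shifts in cell state had in the results below was not tested, and fewer cells of a type and less RNA per cell cannot be told apart in such bulk samples.

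Libraries of a group were alike, with Pearson correlations over all genes of 0.995 to 0.997 on the log2(FPKM + 1) scale. GM replicate 3 was the shallowest, at 0.901 of the depth of GM replicate 1 as read from the steps between low FPKM values, against 0.970 to 1.02 for the other libraries. It was the lowest or highest of the 3 GM libraries for 79.6% of tested genes and for all 9 tested regulators, lowest for 7 of them and highest for ESRRA and NRF1.

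Levels of the regulators spanned a wide range in both groups. FPKM is corrected for transcript length, so levels of different genes can be set side by side. In GM the order of mean FPKM was MFN1, GABPA, MFN2, OPA1, TFB2M, TFAM, ESRRA, NRF1, PPARGC1B and PPARGC1A. The ranges of MFN1 and GABPA over the GM libraries overlapped, as did those of each neighbouring pair from OPA1 to ESRRA. Within every single GM library, however, MFN1 was above GABPA. For GABPA, MFN2, ESRRA, NRF1 and PPARGC1B, the lowest GM library lay above the highest of the next gene. In DM the order was MFN1, MFN2, GABPA, TFAM, TFB2M, OPA1, ESRRA, NRF1, PPARGC1B and PPARGC1A. There the range of GABPA overlapped that of TFAM, although GABPA was above TFAM within every DM library. The ranges of TFAM and TFB2M also overlapped, and those of every other neighbour were separated. GABPA and MFN2 exchanged places between the groups, with separate ranges in both. OPA1 and TFAM exchanged places by their means alone. Their GM ranges overlapped, and in GM replicate 1 TFAM was already above OPA1, at 12.9 against 12.6 FPKM.

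**Figure D1:**
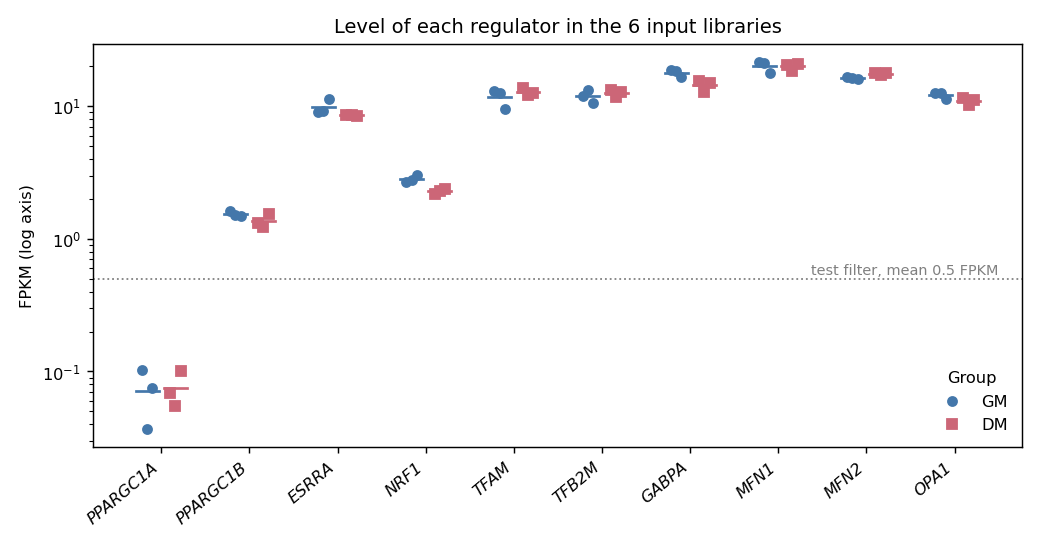
FPKM of the 10 regulators in the 3 GM (blue circles) and 3 DM (red squares) input libraries on a log axis, with a short line at each group mean and a dotted line at the mean of 0.5 FPKM required for testing. PPARGC1A reaches at most 0.102 FPKM, NRF1 and PPARGC1B lie between 1.23 and 3.02, and the other 7 genes between 8.43 and 21.4.

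Of the 9 tested regulators, NRF1 and GABPA were lower in DM and none was higher (limma on log2(FPKM + 1), adjusted p under 0.05). The same call took in 42.8% of the 12302 tested genes, 16.1% of them higher and 26.7% lower. None of the 9 passed the rule of p under 0.05 with a fold over 1.5 that 11.9% of tested genes passed, and the largest change was that of GABPA. The median log2 fold change of the 9 was -0.11, beside -0.05 over all tested genes. Groups did not overlap for 4 of the 9, 1 of them higher in DM and 3 lower, against 54.1% of tested genes, 21.1% higher and 33.0% lower.

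These small changes depended on the scale. Summed FPKM was 415740 to 434458 in the GM libraries and 386436 to 390827 in the DM libraries, so the median log2 fold change of all tested genes was -0.05 with FPKM as deposited, 0.00 with median-of-ratios size factors and 0.06 after rescaling every library to the same sum (TPM). The share of calls that were higher in DM moved with it, from 37.6% to 49.0% and 59.5%. With size factors, which place the median gene near 0, GABPA stayed lower and MFN2 was called higher. With TPM, MFN2 was the single regulator called.

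**Figure D2:**
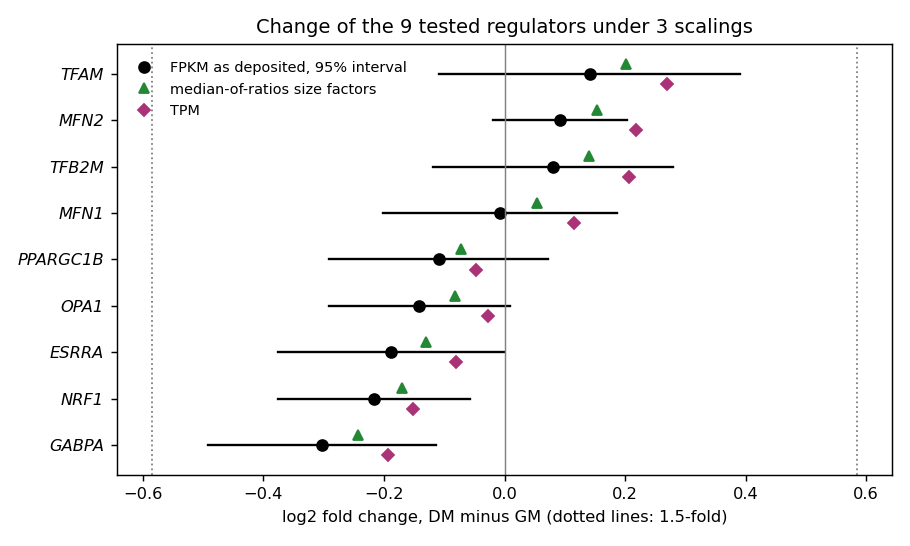
Log2 fold change (DM minus GM) of the 9 tested regulators. Black circles and bars show deposited FPKM with the 95% interval, green triangles size factors, purple diamonds TPM, and dotted lines a 1.5-fold change. Only the bars of ESRRA, NRF1 and GABPA end below 0, every bar lies inside the dotted lines, and MFN1 changes side with the scale.

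PPARGC1A encodes PGC-1alpha, the coactivator best known for induction by exercise and cold. Its FPKM was 0.102, 0.0369 and 0.0755 in GM and 0.0692, 0.0549 and 0.101 in DM, more than only 19.4% of genes in the table. The groups overlapped, and the gene was too low to test. It is identified as ENSBTAG00000017024 and lies on the minus strand of chromosome 6 at 43380463 to 43501184 (ARS-UCD1.2).

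PPARGC1B, its paralogue PGC-1beta, was the PGC-1 coactivator with the more measurable transcript. Its FPKM was 1.62, 1.504 and 1.49 in GM and 1.31, 1.23 and 1.53 in DM. DM replicates 1 and 2 lay below all GM libraries, and DM replicate 3 lay among them. The log2 fold change was -0.11 ± 0.08 (SE), with a 95% interval of -0.29 to 0.07 (limma, adjusted p = 0.302). PPARGC1B (ENSBTAG00000012943) occupies chromosome 7 at 61073587 to 61186881 on the plus strand.

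The balance of the pair was computed within each library as the ratio of PPARGC1A to PPARGC1B, with 0.1 FPKM added to both. It was 0.117, 0.0853 and 0.110 in GM and 0.120, 0.117 and 0.123 in DM. On the log2 scale the mean was -3.27 ± 0.24 in GM and -3.06 ± 0.04 in DM (SD, n = 3), which an exact two-sided permutation test did not separate (p = 0.2, where 3 against 3 libraries allow no p below 0.1). PPARGC1A was therefore the minor transcript of the pair in all 6 libraries. The difference was 0.22, and 0.08 without GM replicate 2. The added 0.1 FPKM is of the size of the PPARGC1A level itself and raises the printed ratios. With 1 FPKM added the difference was 0.11 and the groups did not overlap (exact permutation test, p = 0.1, the smallest possible). PPARGC1A, at most 0.102 FPKM, then counts for little, so that ratio mainly follows PPARGC1B.

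ESRRA is the orphan nuclear receptor ERRalpha, a main partner of PGC-1 coactivators at genes of oxidative metabolism. Its FPKM was 9.11, 9.26 and 11.3 in GM and 8.59, 8.53 and 8.43 in DM. All DM libraries were below all GM libraries, and GM replicate 3 stood well above GM replicates 1 and 2. The log2 fold change was -0.19 ± 0.08, with a 95% interval of -0.38 to -0.00, and missed the threshold after adjustment (limma, adjusted p = 0.0973). Without GM replicate 3 it was -0.10. ESRRA (ENSBTAG00000008645), the shortest of the 10 genes, lies on chromosome 29 at 42603429 to 42612003 on the plus strand.

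NRF1, nuclear respiratory factor 1, binds promoters of many respiratory chain genes. It had 2.67, 2.79 and 3.02 FPKM in GM and 2.19, 2.30 and 2.39 in DM. Every DM library lay below every GM library, and NRF1 fell by 0.22 on the log2 scale (SE 0.07, 95% interval -0.38 to -0.06, limma, adjusted p = 0.0358). Its mean FPKM dropped by 18.9%. The call for NRF1 held in 2 of 12 alternative fits and was lost when any 1 library was left out, with adjusted p between 0.0532 without GM replicate 1 and 0.112 without DM replicate 1. It was also lost with size factors (-0.17, adjusted p = 0.0869) and TPM (-0.15, adjusted p = 0.182), although its log2 fold change was below 0 in every fit. NRF1 (ENSBTAG00000014273) lies on chromosome 4 at 93449966 to 93576616 on the plus strand.

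GABPA is the DNA-binding subunit of nuclear respiratory factor 2, which activates cytochrome oxidase genes. Its FPKM was 18.8, 18.4 and 16.7 in GM and 15.6, 12.7 and 14.9 in DM. The highest DM library lay below the lowest GM library. GABPA fell by 0.30 on the log2 scale (SE 0.08, 95% interval -0.49 to -0.11, limma, adjusted p = 0.0180), and its mean FPKM dropped by 19.9%. The call was lost with TPM (-0.19, adjusted p = 0.137), without GM replicate 1 (-0.27, adjusted p = 0.0629) and without GM replicate 2 (-0.29, adjusted p = 0.0541). It held in the other 9 alternative fits, size factors included (-0.24, adjusted p = 0.0321). The partner subunits GABPB1 and GABPB2 had log2 fold changes of -0.11 and -0.09 that were not called. GABPA (ENSBTAG00000019043) lies on the minus strand of chromosome 1 at 10656634 to 10691694.

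TFAM, the mitochondrial DNA packaging and transcription factor, had 12.9, 12.5 and 9.51 FPKM in GM and 13.7, 12.2 and 12.7 in DM. GM replicate 3 was the lowest of all 6 libraries, and the other 5 lay close together. The log2 fold change was 0.14 ± 0.11 (95% interval -0.11 to 0.39, limma, adjusted p = 0.331), and 0.01 without GM replicate 3. TFAM (ENSBTAG00000003546) lies on chromosome 28 at 45677709 to 45689736 on the minus strand.

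TFB2M, which melts the mitochondrial promoter for POLRMT, had 12.03, 13.3 and 10.5 FPKM in GM and 13.3, 11.8 and 12.9 in DM. The groups overlapped, and the log2 fold change was 0.08 ± 0.09 (95% interval -0.12 to 0.28, limma, adjusted p = 0.490). It was -0.00025 without GM replicate 3. TFB2M (ENSBTAG00000000072) lies on chromosome 16 at 30802001 to 30820756 on the plus strand.

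MFN1 is one of the paralogous GTPases that tether and fuse outer membranes, and it had the highest mean level of the 10 transcripts in both groups. Its FPKM was 21.4, 21.2 and 17.7 in GM and 20.4, 18.5 and 20.9 in DM. The groups overlapped, and the log2 fold change was -0.01 ± 0.08 (95% interval -0.20 to 0.19, limma, adjusted p = 0.952), 0.053 with size factors and 0.11 with TPM. MFN1 (ENSBTAG00000010485) lies on the minus strand of chromosome 1 at 87721169 to 87765315.

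MFN2, the other mitofusin, also tethers mitochondria to the endoplasmic reticulum. Its FPKM was 16.6, 16.4 and 16.1 in GM and 17.7, 17.1 and 17.8 in DM, the tightest groups of any regulator tested apart from ESRRA in DM. All DM libraries lay above all GM libraries. The log2 fold change was 0.09 ± 0.05 (95% interval -0.02 to 0.20, limma, adjusted p = 0.161) with FPKM as deposited, 0.15 with size factors (adjusted p = 0.0295) and 0.22 with TPM (adjusted p = 0.0161). MFN2 (ENSBTAG00000005314) lies on chromosome 16 at 41684079 to 41711310 on the minus strand.

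OPA1, the GTPase of inner membrane fusion and cristae, had 12.6, 12.7 and 11.4 FPKM in GM and 11.5, 10.3 and 11.2 in DM. The groups overlapped by a narrow margin through GM replicate 3. The log2 fold change was -0.14 ± 0.07 (95% interval -0.29 to 0.01, limma, adjusted p = 0.118) and was called without GM replicate 3 (-0.18, adjusted p = 0.0464). OPA1 (ENSBTAG00000019514) lies on the minus strand of chromosome 1 at 73771857 to 73856448, and chromosome 1 thus carries 3 of the 10 genes, far apart from each other.

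Ratios within a library do not depend on its scaling, and both ratios of fusion genes were computed in this way. MFN2 stood to MFN1 as 0.777, 0.774 and 0.914 in GM and as 0.870, 0.928 and 0.849 in DM. MFN1 was the more abundant mitofusin in all 6 libraries. The log2 ratio had a mean of -0.29 ± 0.14 in GM and -0.18 ± 0.07 in DM (SD, n = 3, exact permutation test, p = 0.3, smallest possible 0.1). The difference of 0.11 was 0.18 without GM replicate 3, and 0.068, 0.065 and 0.069 without GM replicate 1, GM replicate 2 and DM replicate 2. The summed FPKM of MFN1, MFN2 and OPA1 over that of DNM1L, the GTPase that cuts mitochondria, was 2.00, 2.04 and 1.93 in GM and 2.24, 2.02 and 1.98 in DM. The log2 means were 0.99 ± 0.04 and 1.06 ± 0.09 (SD, n = 3, exact permutation test, p = 0.5), and the groups overlapped. The difference of 0.063 was 0.0096 without DM replicate 1, 0.040 without GM replicate 3 and 0.097 without DM replicate 3. With 3 libraries a side no ratio could have passed a threshold of 0.05.

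Genes that work with the regulators included larger changes. Their counts are read against all tested genes, of which 16.1% were higher and 26.7% lower with FPKM as deposited, 20.8% and 21.6% with size factors, and 24.3% and 16.6% with TPM. The log2(FPKM + 1) scale understates the change of low genes: with 0.1 added in place of 1, PPARG was at -1.21, PRKAG3 at 0.89, DNA2 at -1.88 and MTFR2 at -2.56. Upstream regulators and partners of the PGC-1 coactivators (receptors, kinases, enzymes that modify PGC-1) had 3 of 30 tested genes higher and 7 lower, with a median log2 fold change of -0.02, but 8 higher and 3 lower with TPM and 6 and 5 with size factors. The lower share as deposited was 23.3%, and these shares were near or below those of all tested genes. PPARG, the receptor of fat cell formation, had 1.34, 1.27 and 1.13 FPKM in GM and 0.481, 0.503 and 0.463 in DM, a log2 fold change of -0.60 (limma, adjusted p = 4.51e-04). PRMT1, an arginine methyltransferase that acts on PGC-1alpha, fell by 0.44 and THRA, a thyroid hormone receptor, by 0.39 on the log2 scale. PRKAG3, the muscle AMPK subunit, rose by 0.38 from a GM level of 0.335 to 0.514 FPKM to a DM level of 0.693 to 0.974. PPRC1, the remaining gene of the PGC-1 family, had 12.5 FPKM on average in GM and 12.3 in DM and was not called, and the relatives ESRRB and ESRRG were too low to test.

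Genes of mitochondrial DNA maintenance and transcription had 11 of 27 tested members lower and none higher, with a median of -0.10 on the log2 scale, and 10 lower with size factors and 7 lower and 1 higher with TPM. The lower share was 40.7%, 37.0% and 25.9% in turn, beside 26.7%, 21.6% and 16.6% of all tested genes. POLRMT, the polymerase that TFAM and TFB2M serve, had 5.04, 5.44 and 6.09 FPKM in GM and 3.94, 3.72 and 3.68 in DM. It fell by 0.45 on the log2 scale (limma, adjusted p = 0.00191), whereas neither TFAM nor TFB2M was called. LONP1, the matrix protease that degrades TFAM, had 64.9, 66.4 and 71.5 FPKM in GM and 42.3, 44.0 and 43.1 in DM and fell by 0.63 (adjusted p = 3.86e-05). The nuclease genes DNA2 and MGME1 fell by 0.77 and 0.49. DNA2 had 1.14, 1.28 and 0.948 FPKM in GM and 0.124, 0.316 and 0.284 in DM, and MGME1 had 2.53, 2.39 and 1.98 in GM and 1.48, 1.49 and 1.08 in DM. DNA2 also serves nuclear DNA replication. The cell cycle list fell as a whole, and a link of the DNA2 change to it was not tested.

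Of 29 tested genes of fission, fusion and cristae, 9 were lower and 1 higher, with a median of -0.11, but 4 were lower and 6 higher with TPM and 6 and 3 with size factors. The lower share of 31.0% was near the 26.7% of all tested genes. MTFR2, a fission regulator, had 4.17, 4.65 and 3.69 FPKM in GM and 0.685, 0.574 and 0.614 in DM, a log2 fold change of -1.67 (limma, adjusted p = 3.07e-06). GDAP1, an outer membrane protein tied to fission, had 1.63, 1.79 and 1.49 FPKM in GM and 2.88, 3.27 and 3.40 in DM, and rose by 0.67 (adjusted p = 3.17e-04). The prohibitin PHB fell by 0.46 and the cristae protein MICOS10 by 0.40. DNM1L was not called, with a mean of 24.5 FPKM in GM and 23.3 in DM.

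Among 15 tested mitophagy genes 2 rose and 2 fell, with a median of 0.05, and 6 rose and 2 fell with TPM. The share that rose was 13.3% as deposited. It was near that of all tested genes as deposited and with size factors, but above their 24.3% with TPM. The share that fell was 13.3% on each scale, below the 26.7%, 21.6% and 16.6% of all tested genes in turn. The autophagy receptors OPTN and SQSTM1 rose by 0.43 and 0.33 on the log2 scale, from 50.9 to 57.0 FPKM and 77.5 to 81.1 FPKM in GM to 70.4 to 75.1 and 95.7 to 103 in DM. NIPSNAP1, a mitochondrial tag for damaged organelles, fell by 0.86, and the outer membrane receptor FKBP8 by 0.33 (limma, adjusted p = 0.00570).

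Genes of oxidative metabolism that the regulators are known to act on had 17 of 33 members lower and 6 higher, with a median of -0.25 on the log2 scale, and 14 lower and 7 higher with size factors but 9 and 9 with TPM. The lower share was 51.5%, 42.4% and 27.3% in turn. CPT1A, the gate of fatty acid entry, had the largest rise on the log2(FPKM + 1) scale, with 10.99, 11.9 and 11.1 FPKM in GM and 23.5, 23.2 and 24.0 in DM (log2 fold change 1.00, limma, adjusted p = 3.49e-06). In the ratio of mean FPKM, though not in FPKM itself, 2 genes of lower level rose by more. The muscle paralogue CPT1B went from 0.603 to 1.43 FPKM, and PDK4, a kinase that inhibits pyruvate dehydrogenase, from 0.260 to 0.811. SOD2, the matrix superoxide dismutase, rose by 0.78. UCP2, an inner membrane carrier, had 6.67, 6.36 and 7.01 FPKM in GM and 2.08, 1.57 and 1.22 in DM and fell by 1.56 (adjusted p = 2.05e-05), and the fatty acid carrier FABP3 fell by 0.98. Respiratory chain genes were among those that fell, such as ATP5F1B of the ATP synthase by 0.46 and UQCRC2 of complex III by 0.41, while SDHB of complex II had 0.03 and was not called.

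Of the 6 lists of related genes, protein import had the largest share of lower genes, with 19 of 31 tested entries lower and none higher, and 15 lower and 1 higher with size factors and 12 and 2 with TPM. The lower share was 61.3%, 48.4% and 38.7% in turn. TOMM5 and TOMM22 of the outer membrane translocase fell by 0.68 and 0.56. The chaperonin HSPD1 has 2 entries in the table, which fell by 0.51 each, and reads may be shared between them. In GM, the lowest and highest summed level of the import list was 1603 and 1698 FPKM, and in DM 1275 and 1346.

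**Figure D3:**
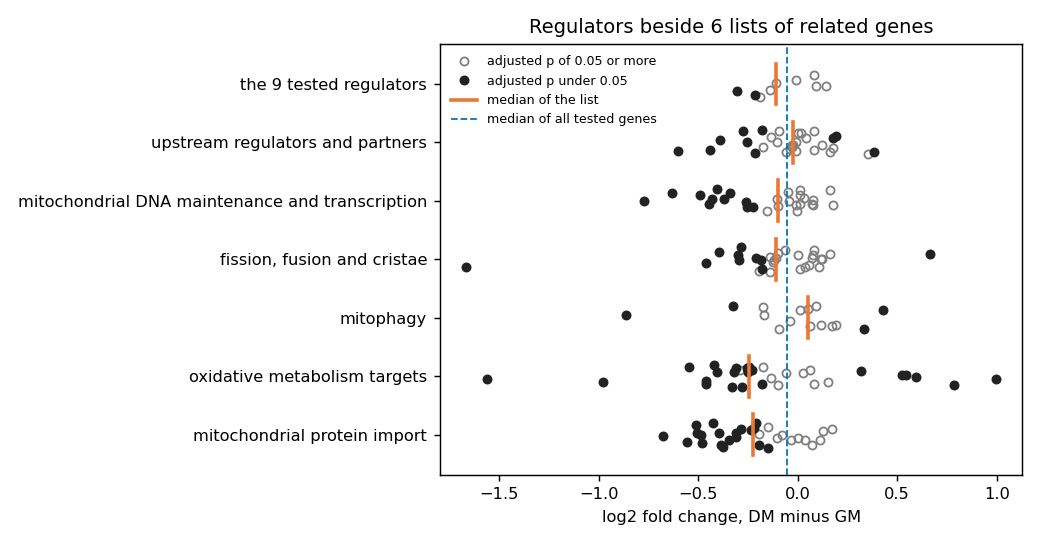
Log2 fold change (DM minus GM) of each tested gene in the 9 regulators and the 6 lists of related genes. Filled points passed an adjusted p of 0.05, orange lines mark the median of a list and the blue dashed line the median of all tested genes at -0.05. GABPA is the regulator farthest from 0 at -0.30, while single genes of the other lists reach from -1.67 to 1.00.

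The m6A peak lists held 12 GM peaks in 6 of the regulators and 17 DM peaks in 9. Every regulator had a peak in at least 1 list, and PPARGC1A, PPARGC1B, ESRRA, TFAM and GABPA had peaks in both that shared bases. NRF1, TFB2M, MFN2 and OPA1 had a peak in the DM list alone, and MFN1 in the GM list alone. A GM peak was listed for 70.9% of all tested genes and a DM peak for 78.7%. Those shares cover tested genes only, whereas the 6 and 9 regulators include PPARGC1A, which was too low to test. Each list gives a peak a single value and no replicate error, and a peak missing from a list was not called there and is not shown to be absent.

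Fold enrichment, the ratio of IP to input in a peak, ran from 1.34 to 13.1 in the GM peaks and from 1.27 to 16 in the DM peaks, beside list medians of 3.27 and 3.38. In both lists it was higher where expression was low. Peaks of genes under 0.5 FPKM had a median of 6.53 in GM and 6.82 in DM, and those of genes of at least 10 FPKM had 2.74 and 2.71. PPARGC1A, with peaks from 6.53 to 16, belongs to the first class. MFN1, with 13.1 at 20.1 FPKM, exceeded 95.9% of all GM peaks in fold enrichment. By the authors' p-value it was better supported than only 28.7% of them.

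**Figure D4:**
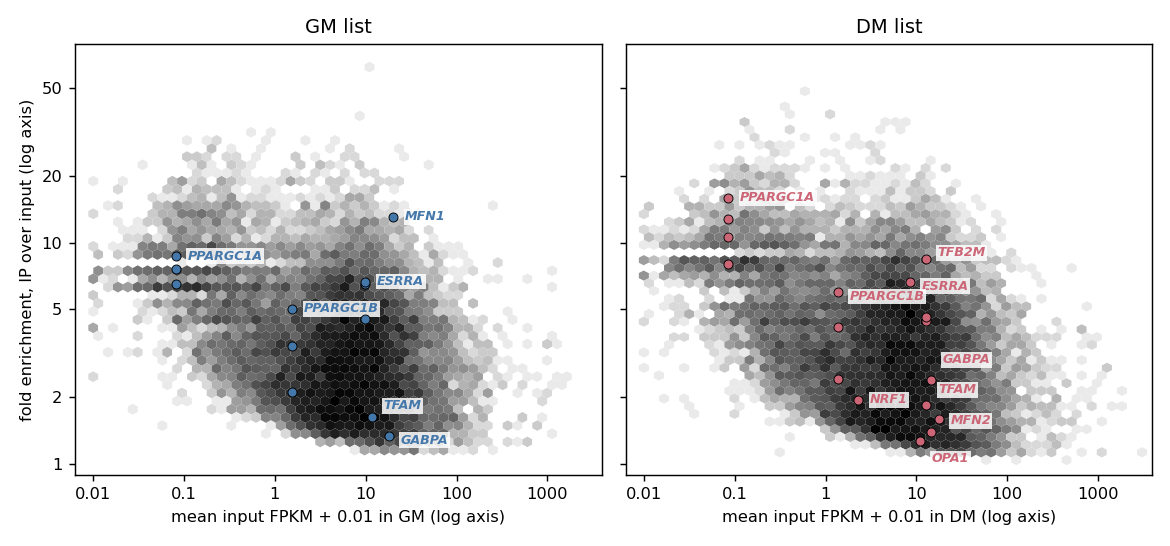
Fold enrichment of every peak (log axis) against the mean input FPKM of its gene plus 0.01 (log axis) in the GM list (left) and the DM list (right). Grey hexagons darken with the number of peaks, coloured points are peaks of the regulators, and each name stands near the highest peak of its gene. PPARGC1A lies at the upper left of both panels, and the TFAM and 5′UTR GABPA peaks and, in DM, those of OPA1 and MFN2 lie low in the cloud, at 1.27 to 1.84.

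PPARGC1A had 3 GM peaks and 4 DM peaks, all beyond 71.3% of the gene's length from its start. The false discovery rates (FDR) given here and below are the authors' and rest on 1 list per group. In GM, a peak in exon 8 at chromosome 6, 43402417 to 43402627, had a fold enrichment of 7.62 (FDR 0.130), a 3′UTR peak 8.71 (FDR 0.0145) and a second 3′UTR peak 6.53 (FDR 0.230). The first and last of these did not pass an FDR of 0.05. The same fold enrichment and p-value as theirs were listed for 252 and 373 peaks of the GM list, themselves included. In DM the exon 8 peak had 10.6 (FDR 0.0145) and the matching 3′UTR peak, which runs over 6 blocks, 16 (FDR 6.31e-04). A DM peak around exon 6 with 7.99 and a last one in the 3′UTR with 12.8 had no partner. These DM values were not unique either. The fold enrichment and p-value of the exon 8 and 6-block peaks were listed for 123 and 33 DM peaks. Those of the exon 6 peak and the last were listed for 12 and 83, themselves included. The shared bases made up 31.5% of the GM bases and 39.7% of the DM bases.

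PPARGC1B carried 3 peaks in each list, from exon 3 of 12 to the end of the gene, and nearly the same bases were covered in both. Shared bases were 2154 of 2213 in GM and of 2571 in DM. Fold enrichment was 5.03, 3.41 and 2.12 in GM and 2.43, 4.15 and 5.99 in DM. The GM and DM peaks were cut at different places. GM peak 1 met DM peaks 1 and 2, and DM peak 3 met GM peaks 2 and 3, so no GM and DM peak matched each other alone and no ratio was formed.

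ESRRA was enriched at both ends in GM and at the 3′ end alone in DM. Its 3′ peak had a fold enrichment of 6.68 in GM and 6.66 in DM, and was by far the best supported of the regulators' GM peaks (FDR 7.94e-82). The GM list added a 5′UTR peak of 4.51 (FDR 2.51e-20) and another of 6.53 at the first base of the gene (FDR 0.230). No DM peak of ESRRA lay in the 5′UTR.

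NRF1 had a single DM peak of 3 blocks, starting in exon 10 and reaching the last base of the gene, with a fold enrichment of 1.95 (FDR 8.91e-04). GABPA had a 5′UTR peak in both lists, with 1.34 in GM and 1.39 in DM, and in DM also a peak of 6 blocks that ends in the 3′UTR, with 2.40 (FDR 1.26e-52). Peaks of the neighbouring gene ATP5PF reach 16 bases into the GABPA span in both lists and are not counted here.

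TFAM had 1 peak in each list near its start, of 1.63 in GM and 1.84 in DM, and the GM peak lay wholly within the DM peak. TFB2M had 3 DM peaks and none in GM. Those wholly inside the gene lay in the 5′UTR, with 4.44 (FDR 2.95e-04) and 4.61 (FDR 2.00e-12). The longest, with 8.41, spans chromosome 16 from 30733102 to 30802133, and all 1160 bases of its 7 blocks lie inside CNST, a gene on the opposite strand that overlaps the start of TFB2M. Only 133 of those bases lie inside TFB2M. A GM peak annotated to CNST, of 7.29, shares all of its 625 bases with this DM peak, and the strand of a peak is not listed, so signal of CNST and of TFB2M cannot be told apart in it. The 4.44 peak, at 30802001 to 30802210, also overlaps CNST, whose span reaches 30802133. The same limit applies to its bases in CNST.

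The fusion genes had 1 peak each. MFN1 had a GM peak over its first 328 bases in the 5′UTR, with 13.1 (FDR 7.59e-04), and no DM peak. MFN2 had a DM peak over the last 91 bases of its 3′UTR, with 1.60 (FDR 0.0631). OPA1 had a DM peak of 2 blocks beginning in exon 22 of 30, with 1.27 (FDR 9.77e-04), the lowest fold enrichment of all the regulators' peaks.

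**Figure D5:**
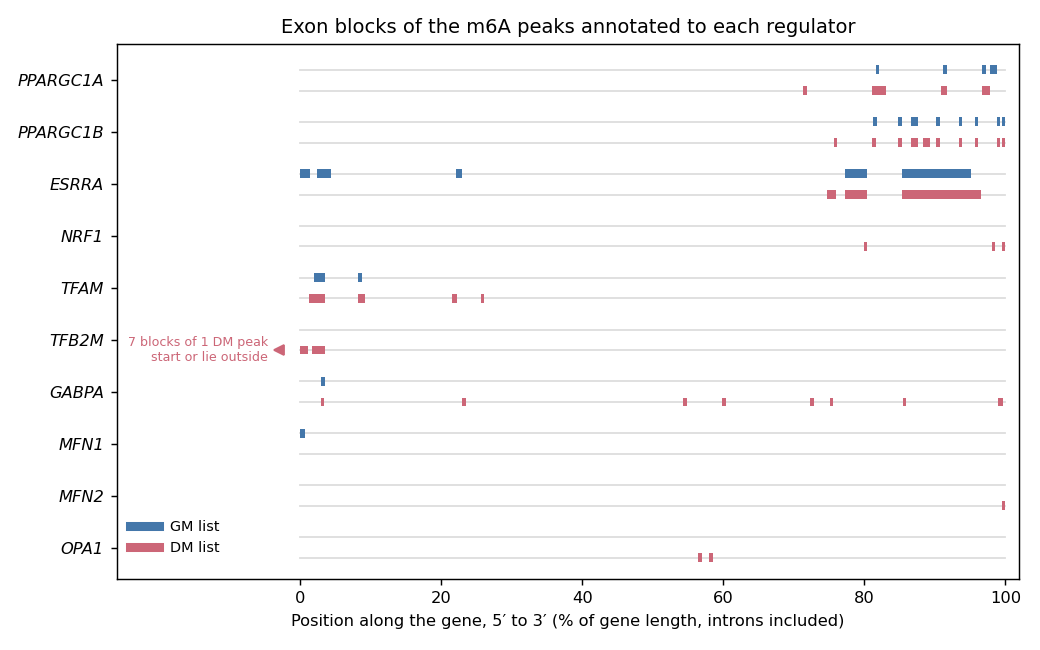
Exon blocks of the peaks annotated to each regulator, in the GM (blue) and DM (red) lists, placed along the gene from 5′ (0%) to 3′ (100%) with introns included. The arrow at TFB2M marks the long DM peak that lies over CNST. Peaks of PPARGC1A and PPARGC1B crowd the 3′ end, those of TFAM and TFB2M the 5′ end, and ESRRA and GABPA have peaks at both.

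Position was described from the authors' annotation. Of the 12 GM peaks 5 were in a 5′UTR, 4 in other exons and 3 in a 3′UTR, and of the 17 DM peaks 5, 7 and 5. Exactly matched pairs of 1 GM and 1 DM peak numbered 5 among the regulators. Their DM over GM ratios of fold enrichment were 1.39 and 1.84 for PPARGC1A, 1.00 for ESRRA, 1.13 for TFAM and 1.037 for GABPA. The single ratio over 1.5 was that of the 3′UTR pair of PPARGC1A, where 25.0% of the 10239 such pairs in the lists passed this fold, 14.2% higher and 10.8% lower in DM. It joins peaks of unequal extent, which share 509 of 689 GM and 958 DM bases. The TFAM and GABPA pairs were unequal too, since the shared bases made up 41.3% and 28.7% of their DM peaks. With 1 value a side, none of these ratios has an error.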

How the data were processed

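The authors sequenced 12 strand-specific libraries. Per the paper's methods, reads were trimmed with Trimmomatic (the labels list cutadapt and fastp), aligned with HISAT2 to ARS-UCD1.2 and summarised per gene by StringTie, and the deposited gene table gives FPKM of the 6 input libraries. The authors called the peaks of each condition with exomePeak, and the list of each group, which gives 1 value per peak, was annotated with ChIPseeker. How the replicates were combined is not given in the sources used here, and the methods' MACS2 peaks of single samples were not used here. The deposited lists give the fold enrichment as a linear ratio, its p-value, and log10 of the p-value and of its false discovery rate. The deposited files hold no read counts, the library totals in the paper were not used here, and the spread of 3 libraries is the measure of precision. Relative depth was read from the commonest ratio of FPKM between libraries in low genes (24 to 33 genes for each library).

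Testing used limma 3.58.1 in R 4.3.3, two-sided, with a trend of the moderated variances on the mean, for the 12302 genes whose FPKM averaged 0.5 or more in the inputs. Values were taken as log2(FPKM + 1), and p-values were adjusted by Benjamini and Hochberg's method over the 12302 genes. Fold changes are therefore on the log2(FPKM + 1) scale and understate the change of low genes. A call is an adjusted p under 0.05. The rule of p under 0.05 and fold over 1.5 follows the study's, which was applied to counts. On simulated data for this comparison, with 200 of 12258 genes changed, 96% were recovered and 13 unchanged genes were called. Recovery of changes as small as those of the regulators was not tested. Peaks of the lists were paired by at least 1 shared base of their exon blocks and the same gene strand, in Python 3.11.15 with pandas 2.3.3, since the lists give the strand of the annotated gene and not of the peak. Where 1 GM peak met 1 DM peak and no other, their fold enrichments were divided, and a ratio past 1.5 either way is called a change.

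The members and lists were chosen with earlier results of these data known. Named genes are all members and, of each list, up to 4 genes with the largest change among those called. GABPB1, GABPB2, PPRC1, ESRRB, ESRRG, DNM1L, ATP5F1B, UQCRC2, SDHB, CPT1B and PDK4 were added after their values were seen. The authors' gene terms served only for the counts given in the observations. Alternatives covered the pseudocount, the filter, the scaling, the variance trend, a replicate block, each library left out, and the thresholds on peaks.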

Additional observations from a re-analysis of the deposited data

How the results depend on the processing

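The number of regulators called under an adjusted p of 0.05 was 2 in the fit reported, and it was compared with 12 alternative fits. It was 1 without the FPKM filter (1 lower), 1 with TPM (1 higher and 0 lower) and, with size factors, 1 higher and 1 lower. Leaving out single libraries gave 0 to 2 regulators, 0 to 2 of them lower. Whether the replicate numbers of GM and DM pair the cultures cannot be told from these data. Deviations of same-numbered libraries from their group means correlated at -0.08, -0.12 and -0.21, but deviations within 3 libraries are tied to each other. A fit with a replicate block left 1 regulator, GABPA, lower and 1 upstream gene higher. MFN1 changed sign to 0.11 with TPM and 0.053 with size factors, and ranged from -0.094 to 0.043 without single libraries. TFB2M ranged from -0.00025 without GM replicate 3 to 0.15 without GM replicate 2. With TPM, 8 upstream genes were higher and 3 lower, 1 and 7 of mitochondrial DNA maintenance, 6 and 4 of fission, fusion and cristae, and 2 and 12 of protein import, while 6 mitophagy genes were higher and 9 oxidative genes lower. With size factors 6 upstream, 3 fission and fusion and 1 import genes were higher, and without the filter 2 fission and fusion genes. Without single libraries the higher upstream genes ranged from 1 to 2, higher fission and fusion genes from 1 to 2, lower ones from 5 to 9, higher mitophagy genes from 2 to 4 and higher import genes from 0 to 1. A fold enrichment of at least 2 left 5 regulators with a DM peak. Changed pairs numbered 2 where 50% or more of both peaks had to overlap, 0 over a fold of 2 and 0 with an FDR under 0.001. Leaving out the long peak over CNST, or the strand in pairing, both chosen after seeing the data, left 9 regulators with a DM peak and 1 changed pair. The cause of these differences was not tested. PPARGC1A, below the FPKM filter, was not tested in the fit reported, and 1 list per group allows no test of any m6A value.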

Other observations

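The genes whose levels over the 6 input libraries followed ESRRA most closely, by Euclidean distance of log2(FPKM + 1) about each gene's mean, were GPRC5B (distance 0.0496), SH3BP5 (0.0698) and PYCR1 (0.0707). Their log2 fold changes of -0.17, -0.16 and -0.22 had adjusted p of 0.1003, 0.0975 and 0.0440 (limma). PPARGC1A was below the filter, so no such genes were sought for it.

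MIR378A, a microRNA gene inside the span of PPARGC1B, was listed at 0, 0.197 and 0.169 FPKM in GM and 0, 0.419 and 0.198 in DM, in libraries that select poly(A) RNA and are not made for short RNAs. In the authors' gene terms, 6 of the regulators carried the term nucleus, 5 the term mitochondrion and 3, MFN1, MFN2 and OPA1, the term mitochondrial fusion. TFAM was the single regulator with both of the first terms.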
